A study of Homo sapiens with 6 samples.

Results

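Genes of mitochondrial protein import and cristae structure were taken from RNA sequencing of 786-O, an established human line derived from clear cell carcinoma of the kidney. The rule that picks them reads gene names and no measured value: the TIMM and TOMM translocase subunits, the CHCHD family, MICOS10 and MICOS13, and IMMT, OPA1, SAMM50, PHB1, PHB2, MTX1, MTX2, PAM16 and DNAJC19. The rule found 44 of the 62703 genes in the deposited table, and 42 of them were tested. The 6 libraries formed 2 groups of 3, 786-O cells labelled as overexpressing OGT and 786-O cells labelled WT, called control below. The titles of the control samples carry the letters NC. OGT encodes the enzyme that places O-linked N-acetylglucosamine on nuclear and cytosolic proteins. Both groups were grown in RPMI-1640 with fetal bovine serum. How OGT was introduced, and whether the cells were a clone or a pool, is not given in the sources used here. Labels do not say whether the replicates are separate cultures. A p-value here therefore reflects the spread among these 6 libraries, which may be technical.

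Most mitochondrial proteins are encoded in the nucleus, made in the cytosol and imported. The TOM complex forms the entry gate of the outer membrane, the SAM complex inserts barrel-shaped proteins there, and the TIM23 complex with its motor moves proteins with a presequence into the matrix. Small TIM chaperones carry hydrophobic proteins across the intermembrane space to the TIM22 complex, and CHCHD4 folds cysteine-rich proteins in that space. Inside the organelle the MICOS complex holds cristae junctions, OPA1 fuses the inner membrane and shapes cristae, and prohibitins form ring scaffolds. Clear cell renal carcinoma is known for a reduced reliance on mitochondrial respiration.

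The deposited values are TPM, a level per transcript length, with column totals of 993936 to 996952. Read depth cannot be recovered from this unit, and no counting intervals are printed. OGT itself had 352.74, 352.92 and 270.87 TPM in the OGT libraries, against 23.11, 22.57 and 23.62 TPM in the control libraries. Every OGT library stood far above every control library (limma log2 change 3.75, SE 0.107, adjusted p = 1.7e-05). All 10 renal and carcinoma markers were detected, with CA9 at no more than 0.85 TPM, and their summed level was 5037 to 5070 TPM in OGT and 4216 to 4452 TPM in control libraries, mostly VIM and KRT8. Of these markers VIM, PAX8, CAV1 and LOX were called higher and KRT18 and NNMT lower, and CDH6 stood at 28.69 TPM in control replicate 2, against 2.69 and 3.05 TPM in the other controls. The 12 markers of leukocytes, endothelium, fibroblasts and liver summed to 1.59 to 3.19 TPM in OGT and 1.05 to 17.75 TPM in control libraries. ALB and CDH5 were among those listed at 0 throughout, and the leukocyte gene PTPRC stood at 12.23 TPM in control replicate 1 and at no more than 0.07 TPM elsewhere. Every log2 change below is OGT overexpression minus control, computed from log2(TPM + 1), and is an underestimate where levels are low. Values after ± are SDs over n = 3 libraries. A gene is said to have risen or fallen where the limma p adjusted over all tested genes was below 0.05.

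Within the import and cristae genes, 12 of the 42 tested rose, 11 fell and 19 did not pass the test, so 54.8% were called, against 48.8% of all tested genes. OPA1, TIMM21 and TIMM17A rose most, and TIMM8B, CHCHD6 and CHCHD2 fell most. OPA1 was under 1 TPM in every control library, so it entered the test through the OGT libraries alone and had to stand higher. It is included in the counts of members that rose and of members without overlap. Over all 12645 tested genes 39.1% rose and 9.7% fell. The members that rose made up 28.6% of those tested, below the share among all genes, and those that fell made up 26.2%, above it. The median log2 change was -0.02 over the members and 0.30 over all tested genes. Changes of single members are to be read against that shift. With the TPM of the groups not overlapping, 13 members stood higher and 11 lower, 31.0% and 26.2% of the 42. Among all tested genes these shares were 46.2% and 12.4%, or 58.6% in either direction. The summed TPM of the 44 members was 4208 ± 139 in OGT cells and 5482 ± 212 in control cells, and CHCHD2 alone supplied 999 ± 43.3 TPM of it in OGT cells and 1842 ± 71.7 TPM in control cells. Without CHCHD2 the sum was 3209 ± 98.2 TPM in OGT cells and 3640 ± 142 TPM in control cells. A TPM sum is a share of a nearly fixed column total, so it gives no absolute amount of RNA. In bulk RNA, fewer cells of a type and less RNA per cell cannot be told apart.

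**Figure D1:**
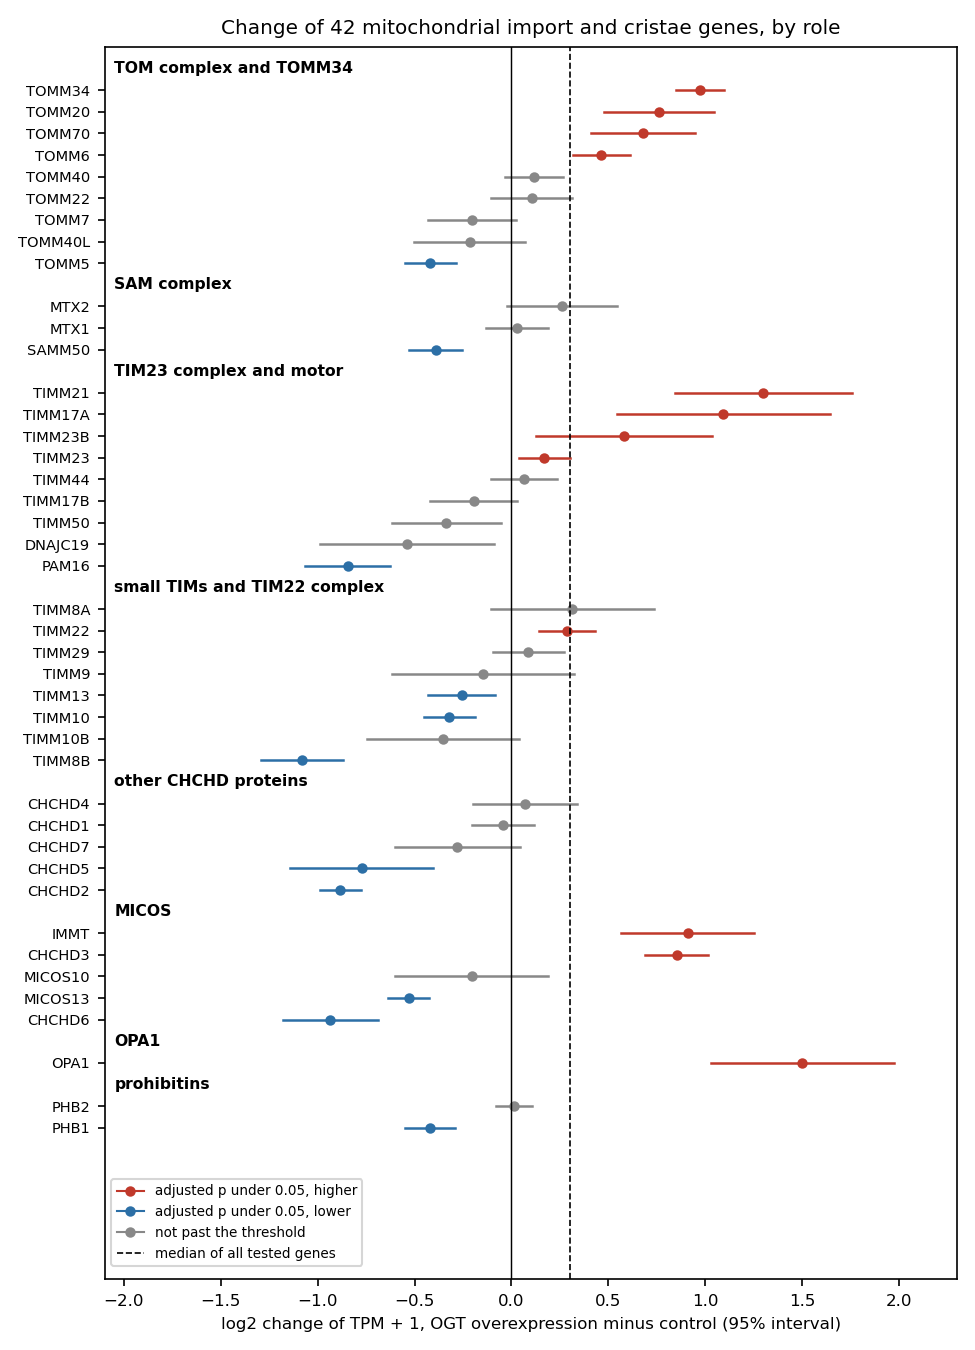
Log2 change of TPM + 1 (x axis, OGT overexpression minus control) of the 42 tested members, in rows by role. Dots are limma estimates and lines their 95% intervals over n = 3 libraries a group, red for members that rose, blue for members that fell and grey for the rest. The TOM, TIM23, small TIM and MICOS groups each hold both members that rose and members that fell. The dashed line is the median of all tested genes, 0.30.

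The direction of change also went with properties of the transcript. Across all tested genes with a reference transcript, long and AT-rich transcripts stood higher in OGT cells, with Spearman correlations of the change of 0.39 with transcript length and -0.47 with GC content (n = 12348). Across the 42 members these correlations were 0.41 and -0.35. The members' change correlated at -0.59 with their control level, but that level also enters the change itself. These are descriptions across genes that share the same 6 libraries. The 12 members that rose had a median reference transcript of 2532 bases and 47.0% GC, and a median level of 17.5 TPM in control cells. For the 11 that fell the medians were 901 bases, 54.1% GC and 154 TPM. With the dependence of TPM on GC content and length removed from each library, 6 members rose and 17 fell, 14.3% and 40.5% of the 42, against 15.6% and 11.9% of all 12348 genes. Median centring left 6 higher and 27 lower members, against 15.3% and 24.2% of all genes, and quantile normalization left 8 and 17, against 20.2% and 17.8%. Of the 12 members that rose, 6 kept their call after the removal of the trend, as did 10 of the 11 that fell. Corrected log2 changes, given below beside the members, are those after that removal, which also centres the libraries.

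**Figure D2:**
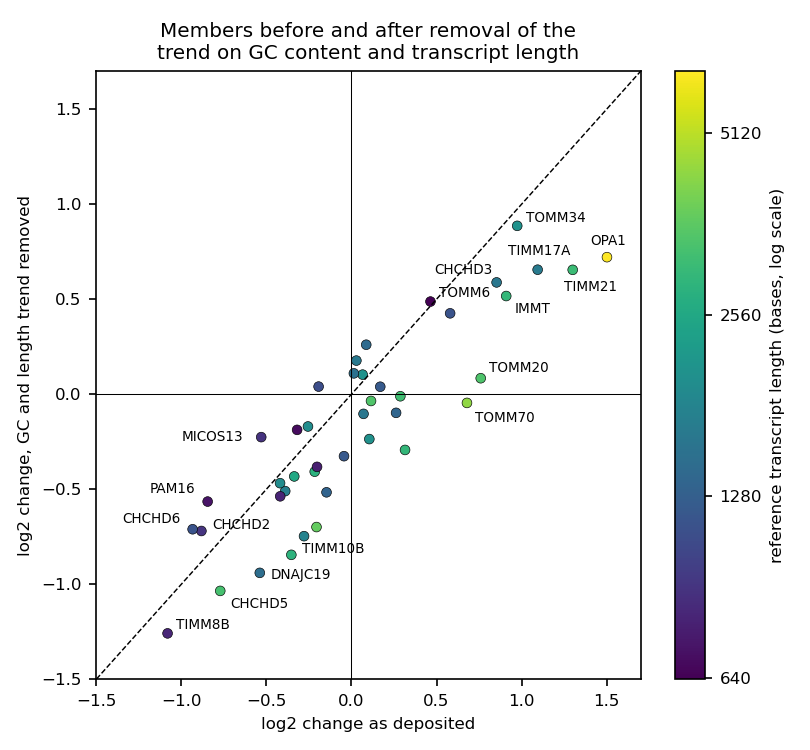
Log2 change as deposited (x axis) against the log2 change after removal of the trend on GC content and transcript length (y axis) for the 42 tested members, coloured by the length of the reference transcript. Points below the dashed line of equality moved down with the correction, TOMM70 to -0.05 and TOMM20 to 0.08. OPA1 (0.72), TOMM34 (0.89), CHCHD3 (0.59) and IMMT (0.52) also moved down but stayed above 0.

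At the outer membrane, the receptors TOMM20 and TOMM70 and the small subunit TOMM6 rose, the small subunit TOMM5 fell, and the channel TOMM40 with the receptor TOMM22 did not pass the test. TOMM20, which binds presequences, had 25.48, 23.38 and 21.21 TPM in OGT libraries, against 12.78, 15.33 and 12.12 TPM in control libraries. Its groups did not overlap, and the log2 change was 0.76 (SE 0.12, limma adjusted p = 0.00226). TOMM70, a receptor for carrier proteins that docks cytosolic chaperones, had 11.64, 11 and 10.33 TPM in OGT libraries, against 6.58, 6.23 and 6.64 TPM in control libraries. Every OGT library again stood above every control library, at a difference in log2 of 0.68 (SE 0.112, limma adjusted p = 0.00276). Both calls ended after removal of the GC and length trend, with corrected log2 changes of 0.08 for TOMM20 and -0.05 for TOMM70 (limma adjusted p = 0.619 and 0.68), and both ended after median centring (limma adjusted p = 0.0532 and 0.0767).

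TOMM40, the pore itself, had 106.09, 123.19 and 113.6 TPM in OGT libraries, against 104.76, 104.26 and 106.83 TPM in control libraries. OGT replicate 1 lay within the control range, and the log2 change was 0.11 (95% interval -0.03 to 0.26, limma adjusted p = 0.174). TOMM22, the central receptor that organises the complex, had 58.55, 62.75 and 58.57 TPM in OGT libraries, against 62.46, 50.09 and 55.09 TPM in control libraries. Its groups overlapped, with a log2 change of 0.10 (95% interval -0.10 to 0.31, limma adjusted p = 0.364). Among the small subunits around the pore, TOMM6 had 218.32, 196.14 and 228.28 TPM in OGT libraries, against 151.98, 158.12 and 154.04 TPM in control libraries, a rise of 0.46 (SE 0.0622, limma adjusted p = 0.00116; corrected 0.49). Median centring ended that call, at 0.08 (limma adjusted p = 0.446). TOMM5 had 98.13, 88.98 and 90.42 TPM in OGT libraries, against 122.08, 127.48 and 122.3 TPM in control libraries, and its log2 change was -0.42 (SE 0.0552, limma adjusted p = 0.00109; corrected -0.54). The 2 small subunits thus moved in opposite directions, each without overlap. TOMM7, the most abundant TOM transcript, averaged 372 ± 35.6 TPM in OGT cells and 429 ± 47 TPM in control cells and did not pass the test as deposited (limma adjusted p = 0.122). Corrected for GC and length it fell, by 0.38 on the log2 scale (limma adjusted p = 0.0143). Median centring alone also gave a fall of TOMM7 (log2 change -0.59, limma adjusted p = 0.00314).

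TOMM34, a cytosolic protein that binds heat shock chaperones and precursors rather than a part of the pore, had the smallest adjusted p of the members that rose. It had 79.25, 78.86 and 77.22 TPM in OGT libraries, against 38.68, 39.87 and 39.74 TPM in control libraries. Replicates were nearly equal in both groups, and the log2 change was 0.97 (SE 0.0526, limma adjusted p = 5.11e-05), still 0.89 after the correction (limma adjusted p = 2.76e-04). TOMM40L, a relative of TOMM40, averaged 11.6 ± 1.42 TPM in OGT cells and 13.5 ± 0.878 TPM in control cells and did not pass the test. TOMM20L was listed at 0 TPM in every library. The summed TPM of the 10 TOMM genes overlapped between the groups, at 977 ± 40.9 in OGT cells and 941 ± 47.6 in control cells.

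In the SAM complex the core barrel gene SAMM50 fell, and both metaxins, which face the cytosol on that complex, did not pass the test. SAMM50 had 52.22, 50.25 and 51.35 TPM in OGT libraries, against 64.95, 66.91 and 70.7 TPM in control libraries. Each OGT library lay below each control library (log2 change -0.39, SE 0.0579, limma adjusted p = 0.00179; corrected -0.51). MTX1 averaged 95.6 ± 5.61 TPM in OGT cells and 93.7 ± 5.49 TPM in control cells, and MTX2 averaged 25.7 ± 2.98 TPM in OGT cells and 21.3 ± 2.24 TPM in control cells. The 95% intervals of their log2 changes ran from -0.13 to 0.19 for MTX1 and from -0.02 to 0.55 for MTX2. MTX1 has a pseudogene copy, MTX1P1, listed at 28.8 TPM in OGT and 14.7 TPM in control cells (log2 change 0.93, limma adjusted p = 1.99e-04), so the split of reads between them is uncertain.

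At the TIM23 complex of the inner membrane, TIMM21, TIMM17A, TIMM23 and TIMM23B rose, the motor regulator PAM16 fell, and TIMM17B, TIMM44, TIMM50 and DNAJC19 did not pass the test. TIMM21, which links the complex to TOM and to respiratory chain assembly, had 7.48, 8.55 and 5.4 TPM in OGT libraries, against 2.33, 2.07 and 2.39 TPM in control libraries. The lowest OGT library was still above every control library, and the log2 change was 1.30 (SE 0.193, limma adjusted p = 0.00179; corrected 0.65, adjusted p = 0.0306). TIMM17A, a channel subunit, had 20.05, 22.93 and 19.15 TPM in OGT libraries, against 13.82, 7.11 and 7.67 TPM in control libraries. Control replicate 1 stood well above the other controls but below every OGT library. The log2 change was 1.09 (SE 0.232, limma adjusted p = 0.00776), and the call ended after the correction (0.66, limma adjusted p = 0.0715). Its partner form TIMM17B had 67.32, 71.0 and 78.94 TPM in OGT libraries, against 75.23, 81.26 and 92.75 TPM in control libraries, with overlapping groups and a log2 change of -0.19 (95% interval -0.42 to 0.03, limma adjusted p = 0.133).

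TIMM23, the channel core, had 101.32, 100.79 and 110.27 TPM in OGT libraries, against 89.9, 93.5 and 93.91 TPM in control libraries. The groups did not overlap, but the log2 change was small at 0.17 (SE 0.0552, limma adjusted p = 0.0398). That call was lost when any 1 of the 6 libraries was left out (limma adjusted p from 0.0632 to 0.0957), was lost after the GC and length correction (0.04), and turned under median centring (-0.22). TIMM23B, a near copy on chromosome 10, had 3.42, 3.96 and 4.56 TPM in OGT libraries, against 2.71, 2.5 and 1.81 TPM in control libraries (log2 change 0.58, SE 0.191, limma adjusted p = 0.0413). With its read-through gene TIMM23B-AGAP6 added to TIMM23B the groups overlapped, at 5.95 ± 1.51 TPM in OGT cells and 6.42 ± 1.99 TPM in control cells. The call of TIMM23B ended after the GC and length correction (0.43, limma adjusted p = 0.128), median centring (adjusted p = 0.477) and quantile normalization (adjusted p = 0.485). It was kept only without control replicate 1 among the libraries left out in turn (limma adjusted p from 0.0441 to 0.113). Their coding sequences in GENCODE release 29 differed at 10 of the first 514 aligned bases, before unlike ends, so reads can be shared and both values are uncertain. A stretch of 60 coding bases (base 9 to 68) is shown for that likeness, the first with as many differences as any ungapped stretch of that length, with capitals where the copies differ.
TIMM23: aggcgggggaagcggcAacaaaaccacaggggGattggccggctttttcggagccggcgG
TIMM23B: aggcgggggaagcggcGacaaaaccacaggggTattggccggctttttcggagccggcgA
Within these 60 bases 3 differ.

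Among the members at the import motor and its receptor, PAM16 passed the test and TIMM44, TIMM50 and DNAJC19 did not. PAM16, which restrains the motor's J-protein, had 90.95, 75.67 and 89.85 TPM in OGT libraries, against 158.54, 164.01 and 140.27 TPM in control libraries. The groups stood far apart (log2 change -0.85, SE 0.0919, limma adjusted p = 5.08e-04; corrected -0.57, adjusted p = 0.0067). A read-through gene, CORO7-PAM16, shares its exons, and with both counted together the level was 112 ± 2.58 TPM in OGT cells and 176 ± 16.8 TPM in control cells. DNAJC19, the J-protein itself, had 16.63, 12.94 and 10.89 TPM in OGT libraries, against 24.13, 19.57 and 16.35 TPM in control libraries. OGT replicate 1 lay just above control replicate 3, and the log2 change of -0.54 narrowly missed the threshold (SE 0.189, limma adjusted p = 0.0505). It passed without OGT replicate 1 (adjusted p = 0.0304) or control replicate 3 (adjusted p = 0.035), and after the correction (-0.94, limma adjusted p = 0.0132). TIMM44, the membrane anchor of the motor, had 88.02, 78.57 and 75.67 TPM in OGT libraries, against 74.24, 76.49 and 80.27 TPM in control libraries, with a log2 change of 0.07 (95% interval -0.10 to 0.23, limma adjusted p = 0.479). TIMM50, the presequence receptor facing the intermembrane space, had 173.73, 216.42 and 195.51 TPM in OGT libraries, against 270.14, 262.78 and 209.21 TPM in control libraries. OGT replicate 2 exceeded control replicate 3, and the log2 change of -0.34 did not pass (SE 0.118, limma adjusted p = 0.0517). Without OGT replicate 2 or control replicate 3 it did (limma adjusted p = 0.0448 and 0.0116), as it did after the correction (-0.43, adjusted p = 0.0471) and after median centring (-0.73, adjusted p = 0.00385).

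Among the carriers of the intermembrane space, TIMM8B, TIMM10 and TIMM13 fell, and the carrier translocase channel TIMM22 rose. TIMM8B, on chromosome 11 (minus strand, bases 112084800 to 112086798 of GRCh38 in GENCODE release 29), had 90.3, 94.03 and 86.99 TPM in OGT libraries, against 220.45, 184.65 and 175.02 TPM in control libraries. No other member fell further: its mean was 0.468 times the control mean (log2 change -1.08, SE 0.0888, limma adjusted p = 1.93e-04; corrected -1.26). On the opposite strand, exons of NKAPD1 overlap 351 of its exon bases and exons of SDHD overlap 26, and NKAPD1 averaged 3.06 TPM in OGT and 2.24 TPM in control cells and SDHD 23.7 TPM in OGT and 11.7 TPM in control cells. TIMM8A, the other form, averaged 7.29 ± 1.43 TPM in OGT cells and 5.64 ± 0.804 TPM in control cells and did not pass the test.

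TIMM9 and TIMM10 form the chaperone ring that carries metabolite carriers. TIMM10 had 140.3, 149.8 and 159.92 TPM in OGT libraries, against 185.57, 190.58 and 185.54 TPM in control libraries (log2 change -0.32, SE 0.0561, limma adjusted p = 0.00354; corrected -0.19). TIMM9 had 21.52, 14.02 and 16.09 TPM in OGT libraries, against 16.58, 24.11 and 16.77 TPM in control libraries, and its groups overlapped throughout (log2 change -0.15, 95% interval -0.62 to 0.32, limma adjusted p = 0.572). The TPM of the 2 ring partners differed by far more than either changed. TIMM13, which pairs with TIMM8A and TIMM8B, had 73.91, 81.84 and 88.79 TPM in OGT libraries, against 98.84, 95.75 and 97.22 TPM in control libraries (log2 change -0.26, SE 0.0729, limma adjusted p = 0.0244). Its call was lost without any library except OGT replicate 3 (limma adjusted p from 0.0553 to 0.0629) and after the correction (-0.17, limma adjusted p = 0.165). TIMM22 had 40.2, 40.03 and 38.89 TPM in OGT libraries, against 33.01, 31.99 and 32.07 TPM in control libraries (log2 change 0.29, SE 0.0611, limma adjusted p = 0.00784). Neither the correction (-0.01, limma adjusted p = 0.907) nor median centring (-0.10) nor quantile normalization (0.02) kept this rise. TIMM29, a metazoan TIM22 subunit, and TIMM10B, which tethers the chaperones to TIM22, did not pass the test. TIMM10B averaged 19.4 ± 5.05 TPM in OGT cells and 24.6 ± 0.861 TPM in control cells, and it was called lower without OGT replicate 3 (limma adjusted p = 0.00581) and after the correction (-0.85, adjusted p = 0.0136). TIMM29 averaged 21 ± 0.8 TPM in OGT cells and 19.7 ± 0.364 TPM in control cells, with groups that just failed to overlap (log2 change 0.09, limma adjusted p = 0.392).

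**Figure D3:**
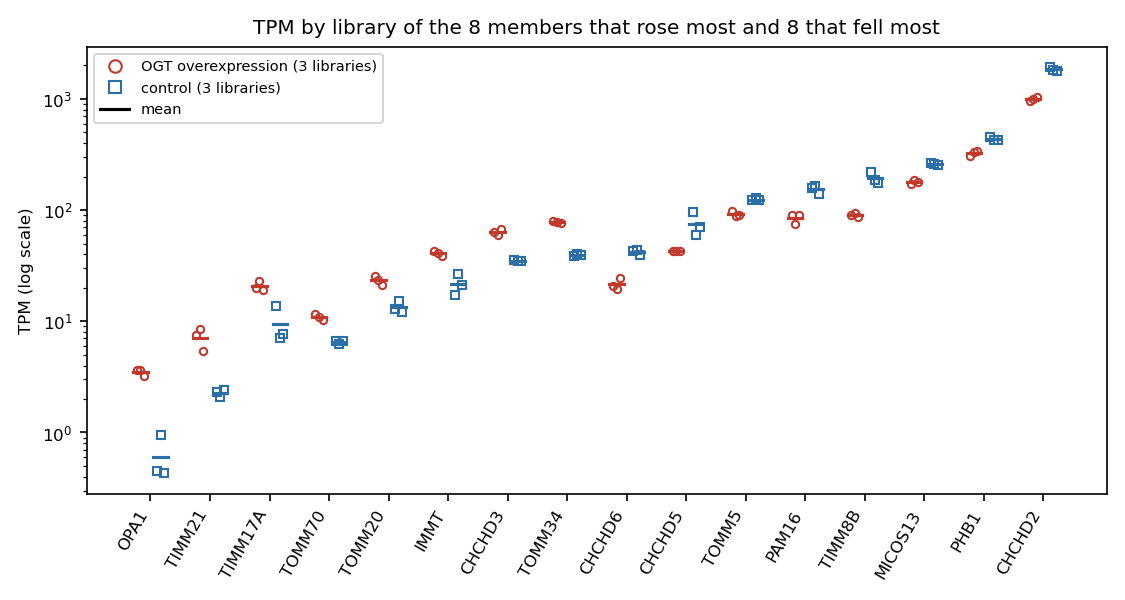
TPM (y axis, log scale) in each library of the 8 members that rose most (left) and the 8 that fell most (right), with OGT libraries as red circles, control libraries as blue squares and short lines for group means. In each of the 16 genes the groups did not overlap, and the genes that rose lie mostly below those that fell in level. These genes were picked by their change in the same libraries, which favours groups without overlap. For OPA1 the filter on low values had fixed the separation of the groups.

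CHCHD4, the oxidoreductase that traps and folds cysteine-rich proteins, had 15.39, 13.87 and 16.78 TPM in OGT libraries, against 13.13, 15.34 and 15.2 TPM in control libraries. Its groups overlapped, and the log2 change was 0.07 (95% interval -0.20 to 0.34, limma adjusted p = 0.633). Of the other twin-cysteine CHCHD genes outside MICOS, CHCHD2 and CHCHD5 fell and CHCHD1 and CHCHD7 did not pass the test. CHCHD2, a regulator of respiration in mitochondria and of transcription in the nucleus, was the most abundant member, with 954.04, 1002.07 and 1040.51 TPM in OGT libraries, against 1922.7, 1819.22 and 1784.87 TPM in control libraries. The gap between the groups was several times the spread within them (log2 change -0.88, SE 0.045, limma adjusted p = 4.31e-05; corrected -0.72). Its close relative CHCHD10 was listed at 0 TPM in the OGT libraries and at 0.33, 0 and 0.4 TPM in the control libraries, and it was not tested. CHCHD5 had 42.8, 42.63 and 43.1 TPM in OGT libraries, against 95.54, 60.15 and 70.06 TPM in control libraries (log2 change -0.77, SE 0.156, limma adjusted p = 0.00648; corrected -1.04). The controls were widely spread there while the OGT libraries were nearly equal. CHCHD1, a subunit of the mitochondrial ribosome, averaged 40.9 ± 2.45 TPM in OGT cells and 42.1 ± 0.72 TPM in control cells. CHCHD7 averaged 15.7 ± 2.35 TPM in OGT cells and 19.2 ± 1.9 TPM in control cells. Both were lower after the correction, at -0.33 and -0.75 (limma adjusted p = 0.0138 and 0.00753). Both were also lower after median centring alone, at -0.43 and -0.67 (limma adjusted p = 0.0029 and 0.00885).

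**Figure D4:**
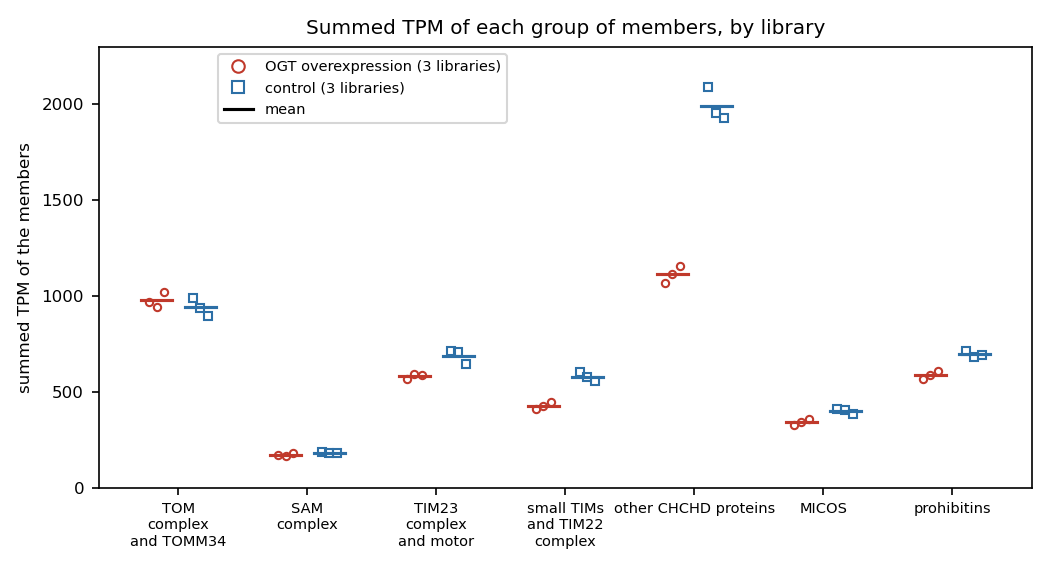
Summed TPM (y axis) of the members of each role except OPA1 in each library, OGT libraries as red circles, control libraries as blue squares and lines for the means. The CHCHD genes outside MICOS summed to 1114 ± 43.7 TPM in OGT and 1994 ± 87.5 TPM in control cells, most of it CHCHD2, while the TOM sums overlapped.

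MICOS subunits moved in both directions. The scaffold IMMT and the subunit CHCHD3 rose, CHCHD6 and MICOS13 fell, and MICOS10 did not pass the test. IMMT had 42.54, 40.98 and 38.98 TPM in OGT libraries, against 17.21, 26.34 and 21.13 TPM in control libraries (log2 change 0.91, SE 0.146, limma adjusted p = 0.0024; corrected 0.52, adjusted p = 0.0494). CHCHD3 had 64.12, 59.63 and 68.14 TPM in OGT libraries, against 35.43, 34.52 and 34.77 TPM in control libraries (log2 change 0.85, SE 0.0684, limma adjusted p = 1.78e-04; corrected 0.59). CHCHD6, its partner in the same subcomplex as IMMT, had 20.7, 19.33 and 24.58 TPM in OGT libraries, against 42.53, 43.94 and 39.25 TPM in control libraries (log2 change -0.93, SE 0.104, limma adjusted p = 5.58e-04; corrected -0.71). The order of the 2 partners was therefore reversed, with CHCHD6 above CHCHD3 in every control library and CHCHD3 above CHCHD6 in every OGT library. MICOS13, the bridging subunit between both MICOS subcomplexes, had 171.12, 186.42 and 179.34 TPM in OGT libraries, against 262.29, 259.3 and 255.02 TPM in control libraries (log2 change -0.53, SE 0.045, limma adjusted p = 2.09e-04; corrected -0.23, adjusted p = 0.0107). It shares 293 exon bases with HSD11B1L on the other strand, which averaged 17.1 TPM in OGT and 44.3 TPM in control cells. The library's strand is not stated, and what part of the fall came from that gene was not tested. MICOS10, whose product bends the membrane at junctions, had 30.47, 37.0 and 44.73 TPM in OGT libraries, against 50.41, 42.96 and 36.12 TPM in control libraries (log2 change -0.21, 95% interval -0.60 to 0.19, limma adjusted p = 0.345). It was called lower after the correction (-0.70, limma adjusted p = 0.0298) and after median centring (-0.59, limma adjusted p = 0.0299). Its read-through gene MICOS10-NBL1 stood at 69.9 TPM in OGT and 57.3 TPM in control cells, above MICOS10 itself, and the 2 rows together gave 107 ± 12.1 TPM in OGT cells and 100.4 ± 5.95 TPM in control cells.

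OPA1, the dynamin-like GTPase of inner membrane fusion, lies on chromosome 3 (plus strand, bases 193593144 to 193697823 of GRCh38 in GENCODE release 29). It had 3.66, 3.64 and 3.23 TPM in OGT libraries, against 0.45, 0.94 and 0.43 TPM in control libraries. All controls lay under 1 TPM, so OPA1 entered the test through the OGT libraries alone and, having done so, had to differ. The log2 change was 1.502 (SE 0.199, limma adjusted p = 0.00112), and the corrected value was 0.72 (limma adjusted p = 0.0238). The level was low in both groups. Its 6493-base reference transcript was the longest among the members and, at 38.4% GC, the most AT-rich. The prohibitins, which form a hetero-oligomeric ring, differed from each other. PHB1 had 305.91, 330.67 and 340.54 TPM in OGT libraries, against 458.22, 425.97 and 423.71 TPM in control libraries (log2 change -0.42, SE 0.0544, limma adjusted p = 0.00101; corrected -0.47). PHB2 had 263.46, 258.11 and 267.27 TPM in OGT libraries, against 255.81, 256.68 and 268.8 TPM in control libraries, with a log2 change of 0.01 (95% interval -0.08 to 0.11, limma adjusted p = 0.792). PHB1 fell without overlap while PHB2 overlapped fully, and after median centring PHB2 too was lower (-0.37, limma adjusted p = 9.46e-04).

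Promoters of OPA1, CHCHD3, CHCHD6 and CHCHD2 are shown as the regulatory sequence of the member that rose most, of the MICOS partners that moved apart and of the most abundant member. RefSeq promoters (GRCh38.p14) matched 41 of the 44 members, and TIMM8B, TOMM5 and CHCHD7 were not among them. The 250 bases before each RefSeq start are given 5′ to 3′ on the gene's strand. They are OPA1 at chr3:193592958-193593207 (plus), CHCHD3 at chr7:133082091-133082340 (minus), CHCHD6 at chr3:126703990-126704239 (plus) and CHCHD2 at chr7:56106477-56106726 (minus). The GENCODE gene bounds place the start further upstream for OPA1 (base 193593144), CHCHD6 (base 126704220) and CHCHD2 (base 56106576). By those bounds the last bases shown for these genes lie inside the gene. For CHCHD3 (base 133082088) they do not. Distances below are counted from the RefSeq start. Capitals mark matches, on both strands, to an ETS-type motif (letters CCGGAAGT), to CCAAT, to ACGTG, the core of hypoxia response elements, to the GC box (letters GGGCGG) and to the NRF1 palindrome. ACGTG also lies within the E-box CACGTG.
OPA1: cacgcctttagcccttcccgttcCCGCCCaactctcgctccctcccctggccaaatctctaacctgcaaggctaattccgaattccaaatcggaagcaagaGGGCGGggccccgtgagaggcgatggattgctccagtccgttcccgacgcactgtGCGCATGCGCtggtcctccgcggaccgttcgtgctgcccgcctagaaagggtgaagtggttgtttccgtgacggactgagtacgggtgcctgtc
CHCHD3: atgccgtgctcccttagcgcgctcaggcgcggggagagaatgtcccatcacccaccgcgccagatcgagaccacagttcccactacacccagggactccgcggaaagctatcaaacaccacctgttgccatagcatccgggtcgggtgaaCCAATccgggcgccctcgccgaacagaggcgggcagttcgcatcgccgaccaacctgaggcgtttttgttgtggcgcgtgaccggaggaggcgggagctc
CHCHD6: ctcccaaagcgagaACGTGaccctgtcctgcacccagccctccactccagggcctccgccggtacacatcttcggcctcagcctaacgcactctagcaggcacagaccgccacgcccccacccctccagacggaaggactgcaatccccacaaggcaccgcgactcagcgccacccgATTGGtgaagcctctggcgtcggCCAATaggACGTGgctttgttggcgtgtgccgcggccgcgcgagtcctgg
CHCHD2: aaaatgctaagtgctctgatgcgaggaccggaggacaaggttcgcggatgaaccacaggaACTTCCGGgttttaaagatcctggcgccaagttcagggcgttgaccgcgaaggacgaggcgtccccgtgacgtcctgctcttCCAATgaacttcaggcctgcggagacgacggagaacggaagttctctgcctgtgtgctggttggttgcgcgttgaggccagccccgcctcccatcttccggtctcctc
OPA1 held an NRF1-type match 94 to 85 bases before the RefSeq start and 2 GC boxes. CHCHD3 held 1 CCAAT match, CHCHD6 held 2 CCAAT and 2 ACGTG matches, and CHCHD2 held 1 ETS-type and 1 CCAAT match. Among the 41 member promoters, 8 held the ETS-type letters, 19.5% of them, against 7.68% of 9365 tested genes with a promoter. The 41 include CHCHD10 and TOMM20L, which were not tested, so the compared sets are not wholly alike. The ACGTG core was found in 8 member promoters, 19.5%, against 23.9% of all, and the cAMP response element TGACGTCA in 0 of 41, against 2.98%. The NRF1 palindrome was in the promoters of OPA1 and CHCHD4 alone, 4.88% against 2.04%. The CCAAT letters stood in 39.0% of member promoters, against 35.4% of all, and the GC box in 56.1%, against 68.5%. By direction, ETS-type letters stood in 3 of 12 members that rose and 2 of 9 that fell, and ACGTG in 4 of 12 and 3 of 9. These matches are a description of letters, not of binding.

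The ratio of 2 subunits within a library is hardly touched by how the library is scaled, and 13 pairs were compared as the log2 ratio of TPM + 1. With 3 against 3 libraries the exact permutation test cannot go below p = 0.1, which no adjustment can bring under the threshold. In CHCHD3 against CHCHD6 the share of CHCHD3 in the pair was 75.6%, 75.5% and 73.5% in OGT libraries, against 45.4%, 43.997% and 47.0% in control libraries. The log2 ratio differed by 1.79 (exact permutation p = 0.1, adjusted p = 0.186 over the 13 pairs), the widest shift of all pairs, and by 1.30 after the correction. TIMM8A made up 7.47% ± 1.55 of TIMM8A plus TIMM8B in OGT cells and 2.84% ± 0.334 in control cells, a shift of 1.40 in the log2 ratio. TIMM17A made up 22.3% ± 2.51 of TIMM17A plus TIMM17B in OGT cells and 10.4% ± 4.44 in control cells, a shift of 1.29. In both pairs the rarer form held a larger share in every OGT library than in any control library. After the correction the TIMM8A shift was 0.97 without overlap, while the groups of TIMM17A overlapped at 0.62.

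Other partners shifted less. TOMM20 made up 28.0% ± 2.02 of TOMM20 plus TOMM22 in OGT cells and 19.5% ± 3.46 in control cells, but after the correction these ratios overlapped. PHB1 made up 55.3% ± 1.37 of the 2 prohibitins in OGT cells and 62.6% ± 1.503 in control cells, a shift of -0.43 in the log2 ratio. TOMM40 against TOMM40L and TIMM23 against TIMM23B also separated the groups, with shifts of 0.33 and -0.41. No background of other gene pairs was computed. Of single tested genes, 58.6% also had TPM without overlap between the groups. The ratios TIMM10 to TIMM10B, TIMM9 to TIMM10, MTX1 to MTX2, MICOS10 to MICOS13, DNAJC19 to DNAJC15 and PAM16 to DNAJC19 overlapped between the groups. After the correction TIMM10 to TIMM10B and PAM16 to DNAJC19 no longer overlapped, with shifts of 0.66 and 0.38.

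**Figure D5:**
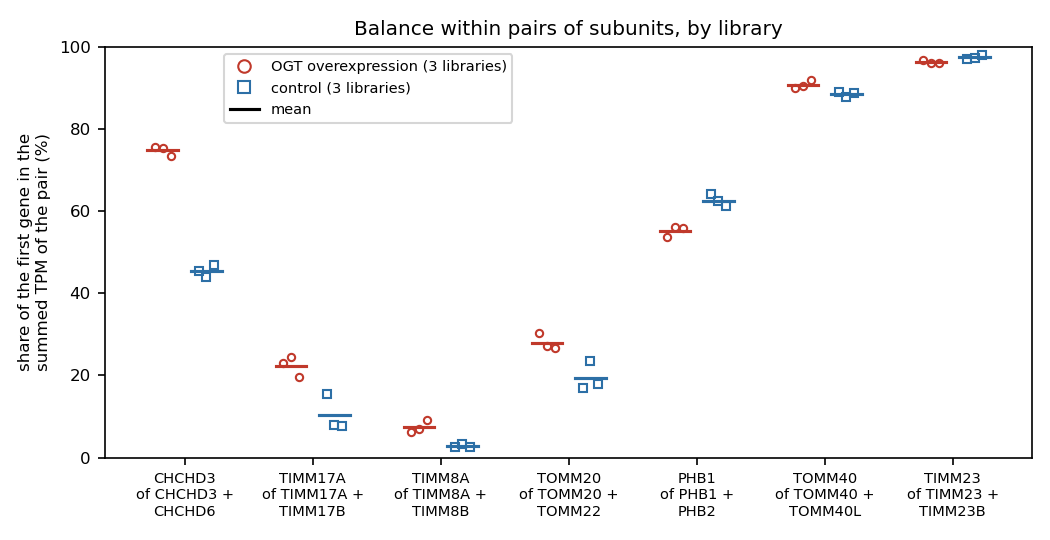
Share of the first gene in the summed TPM of a pair (y axis, percent) in each library for the 7 pairs whose ratio separated the groups, OGT libraries as red circles, control libraries as blue squares and lines for the means. CHCHD3 moved to 74.9% of its pair in OGT cells, against 45.5% in control cells, and the rarer forms TIMM17A and TIMM8A held larger shares in OGT cells.

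Genes that act with the members in import were taken from a list of 28, chosen apart from the naming rule and with earlier results of these data known. Of these 18 rose, 2 fell and 8 did not pass the test, against 39.1% of all tested genes that rose and 9.7% that fell, and the median log2 change was 0.41, against 0.30 over all tested genes. The 4 with the smallest adjusted p among those that rose were HSP90AA1 and DNAJA1, cytosolic chaperones of precursors, HSPD1, the matrix chaperonin, and PITRM1, the protease that degrades cleaved presequences. HSP90AA1 averaged 67.6 TPM in OGT cells and 16.3 TPM in control cells (log2 change 1.99), and HSPD1 averaged 98.1 TPM in OGT cells and 36.3 TPM in control cells (1.41). PITRM1 and DNAJA1 had log2 changes of 1.07 and 0.93, and all 4 stayed higher after the correction (limma adjusted p at most 0.00401). HSPA9, the ATP-driven motor chaperone that works with PAM16 and DNAJC19, had a log2 change of 1.03 (limma adjusted p = 1.7e-04; corrected 0.32), set beside the -0.85 of PAM16. ROMO1, a small inner membrane protein of the TIM23 complex, and GFER, which reoxidises CHCHD4, were the 2 that fell, at -0.78 and -0.25. The call of GFER ended after the correction (-0.24, limma adjusted p = 0.135). After the correction 10 of the 28 rose and 3 fell, against 15.6% and 11.9% of all genes, with a median of 0.07. Those 3 were ROMO1, DNAJC15 and MTCH2.

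A second list held 22 genes of cristae shape, fusion, fission and inner membrane quality control, of which 21 were tested. Here 9 rose, 5 fell and 7 did not pass, and the median log2 change was 0.34. The share that rose was near the 39.1% of all tested genes, of which 9.7% fell. YME1L1, the protease that processes OPA1, rose with 15.2 TPM in OGT cells and 4.54 TPM in control cells (log2 change 1.54, limma adjusted p = 2.64e-04; corrected 0.81). AFG3L2, the matrix-facing protease scaffolded by prohibitins, rose by 0.78, and the fission receptor MFF and the MICOS-associated DNAJC11 by 0.76 and 0.55. HAX1, ATP5MG, FIS1 and ATP5ME fell, at -0.58, -0.97, -0.54 and -0.24. ATP5MG and ATP5ME are small subunits of ATP synthase at the dimer interface that bends cristae, and FIS1 is an outer membrane fission factor. The call ended after the correction for MFF (limma adjusted p = 0.103) and ATP5ME (0.494). After the correction 3 of the 21 were higher, near the 15.6% of all genes, and 5 were lower, against 11.9%. OMA1, the stress protease that cleaves OPA1, averaged 2.86 TPM in OGT cells and 1.73 TPM in control cells and did not pass (limma adjusted p = 0.503). Its libraries had 1.45, 1.52 and 5.6 TPM in OGT and 2.51, 1.9 and 0.77 TPM in control cells. The higher OGT mean thus came from OGT replicate 3.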

How the data were processed

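RNA from 6 786-O libraries was sequenced after TruSeq RNA preparation, per the labels' protocols. The authors deposited TPM per gene for 62703 human Ensembl identifiers. The file header names no unit, and TPM was taken from the column totals. The aligner, the counter and the strand setting: not given in the sources used here. GRCm38 and mm10, both mouse builds, stand in the submitters' processing notes, although the identifiers are human. The 12645 genes reaching 1 TPM in 3 or more libraries entered limma 3.58.1 under R 4.3.3 as log2(TPM + 1), with a pseudocount of 1 (eBayes with trend and robust, two-sided), adjusted by Benjamini-Hochberg, threshold 0.05, after the method was tested on simulated data. OGT overexpression minus control was the 1 contrast. Depth per library is unknown, so precision rests on the 3 libraries a group. Reference length and GC content came from each gene's longest protein-coding transcript in GENCODE release 29, for 97.7% of tested genes (12348) and all 42 tested members; it need not be the expressed transcript. Trends were removed per library with natural splines of 4 degrees of freedom, which also centres the libraries. Pair ratios were compared by exact permutation with Benjamini-Hochberg adjustment in scipy 1.17.1, and coding sequences were aligned with Biopython 1.88. Members were chosen by name. Members and lists were chosen with earlier results of these data known. Values in every library were given for fixed central subunits and for the 8 largest rises and falls past the threshold; from each list of other genes, up to 4 per direction with the smallest adjusted p were named, with HSPA9 and OMA1 added after their values were seen. The replicate numbers were not used to pair libraries. Alternatives were another pseudocount, no filter, a mean of at least 5 TPM, quantile normalization, median centring, the trend removal, each library left out, a replicate block and plain limma.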

Additional observations from a re-analysis of the deposited data

How the results depend on the processing

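Counts and log2 changes were recomputed with 15 other settings, except that OPA1, TIMM21 and TIMM23B were not tested for means of at least 5 TPM. The log2 ratios were recomputed with 9, without quantile normalization, median centring, other filters, plain limma or the block with trend removal. With quantile normalization, median centring, removal of the GC and length trend (trend removal) and that removal with a replicate block, members called higher numbered 8, 6, 6 and 4, and lower 17, 27, 17 and 14. All tested genes gave 2558, 1937, 1922 and 1365 higher, with 2245 and 3066 lower under quantile normalization and median centring. Other import genes called higher numbered 10 under both trend removals, and those called lower 4 under quantile normalization, 5 under median centring and 1 without a filter, with the replicate block and with plain limma. Other cristae genes called higher numbered 5, 4, 3 and 3. The members' median log2 change was -0.15 for means of at least 5 TPM, -0.25 under quantile normalization, -0.40 under median centring and -0.18 under both trend removals. Leaving out 1 library gave 10 to 11 members higher and 10 to 12 lower, 3899 to 4604 of all genes higher and 989 to 1127 lower, and 1 to 2 other import genes lower. Same-numbered libraries did not deviate together (r = -0.0194, 0.00264 and 0.0166). That cannot tell whether they were prepared as pairs, which the labels do not say. The replicate block gave 10 members higher and 12 lower.

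Log2 changes reversed as follows. Under quantile normalization they were CHCHD4 -0.27, MTX1 -0.0782, MTX2 -0.0421, TIMM44 -0.0711, TOMM22 -0.0913, TIMM29 -0.22 and TIMM8A -0.10. Under median centring they were CHCHD4 -0.32, MTX1 -0.36, MTX2 -0.13, TIMM23 -0.22, TIMM44 -0.32, TOMM22 -0.28, TOMM40 -0.27, PHB2 -0.37, TIMM22 -0.10, TIMM29 -0.30 and TIMM8A -0.0738. Under trend removal, with or without the block, they were CHCHD4 -0.10, MTX2 -0.10, TIMM17B 0.0400, TOMM22 -0.24, TOMM40 -0.0357, TOMM70 -0.0460, TIMM22 -0.0109 and TIMM8A -0.29. With 1 library left out, MTX1 ran from -0.0202 to 0.0574, below 0 without OGT replicate 3 or control replicate 3, and TIMM9 from -0.31 to 0.0221, above 0 without control replicate 2. Log2 ratios reversed under trend removal for TIMM9/TIMM10 (-0.33), MTX1/MTX2 (0.28), MICOS10/MICOS13 (-0.47), DNAJC19/DNAJC15 (0.26) and PAM16/DNAJC19 (0.38). With 1 library left out, TIMM10/TIMM10B ran from -0.0445 to 0.18, TIMM9/TIMM10 from -0.0376 to 0.33 and DNAJC19/DNAJC15 from -0.366 to 0.0761. The cause of these changes was not tested. CHCHD3 and TOMM34 stayed higher, and CHCHD2, CHCHD5, CHCHD6, MICOS13, SAMM50, PAM16, TOMM5, PHB1 and TIMM8B lower, in every setting. OPA1 also stayed higher where tested, but it passed the filter through the OGT libraries alone and so had to differ.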

Other observations

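In control libraries the members with the widest spread were OPA1, TIMM17A, CHCHD5 and TIMM9, with coefficients of variation of 47.6%, 39.1%, 24.3% and 22.4%. The median coefficient of variation over the tested members was 7.59% in OGT and 6.18% in control libraries. TOMM5 and TOMM6 share exon bases on the same strand with the unnamed genes AL138752.2 (520 bases) and AL365205.1 (637 bases). Reads may be split between those rows. Named pseudogenes exist for 17 members, and for most of these members they were listed at 0 TPM in every library. Outside MTX1, whose pseudogene reached 29.51 TPM, their sums were at most 2.73 TPM, for CHCHD4 in control replicate 3.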
